A study of Mus musculus with 6 samples.

Results

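The nuclear genes of respiratory complex III, cytochrome c, complex IV and ATP synthase were followed through a pulldown of RNA bound to HuD from mouse hippocampus. Members were the genes whose symbol starts with Uqcr, with Cox and a digit or with Atp5, together with Cyc1 and Cycs. The rule gave 52 of 18193 genes on the array, read by 105 probe sets. They comprised 9 subunits of complex III, the somatic cytochrome c gene Cycs, 16 subunits of complex IV including tissue isoforms, 17 subunits of ATP synthase, the supercomplex factor Cox7a2l and 8 assembly factors of complex IV. HuD, encoded by Elavl4, is a neuronal RNA-binding protein that binds U-rich and AU-rich stretches, mostly in 3′ untranslated regions. In 3 HuD samples, RNA was recovered on protein-G beads with anti-myc antibodies directed at HuD expressed from a transgene. In 2 IgG samples, the beads carried non-immune IgG, and 1 sample held total input RNA without a pulldown. All 6 samples were labelled hippocampus and hybridised to Affymetrix mouse arrays. Animal age, strain, the promoter of the transgene and whether tissue was pooled are not given in the sources used here, nor is it stated that the samples of a group came from separate animals, so the p-values reflect only how far these arrays differ from each other and may capture technical variation. The labels name no non-transgenic control.

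Complex III passes electrons from ubiquinol to cytochrome c, the soluble carrier that hands them to complex IV, which reduces oxygen to water. Both complexes pump protons across the inner mitochondrial membrane, and ATP synthase lets the protons return through its membrane ring while its catalytic head makes ATP. In neurons this pathway supplies most of the ATP used at synapses and by ion pumps. All members are encoded in the nucleus, translated in the cytosol and imported, and they join subunits encoded by mitochondrial DNA. A subunit stays in the finished complex, whereas an assembly factor delivers copper or haem or helps insertion and is not part of the product.

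Signals are the deposited array values, scaled by the authors so that the mean without the outer 2% at each end was 150.0 on every array, so that higher and lower always mean relative to the other RNAs on an array. Levels are not compared between genes. Differences are in log2(signal + 32), which understates changes of dim genes, and a gene rose or fell where limma's adjusted p over 9096 tested genes was under 0.05. Elavl4 itself read 2294, 2010.1 and 1689 on the HuD arrays, 766 and 642 on the IgG arrays and 597 on the input array, and all HuD arrays lay above the rest (HuD minus IgG 1.46 ± 0.25 SE, adjusted p = 0.0011), in which transgene message and bound Elavl4 mRNA cannot be told apart. Marker lists of cell types also moved. The summed signal of 10 hippocampal excitatory neuron markers was 9853 to 11138 on the HuD arrays, 6469 to 7614 on the IgG arrays and 5411 in the input. Of 9 tested, 3 were higher in HuD than IgG (Bcl11b, Tbr1 and Neurod2) and 1 lower (Zbtb20). Bcl11b was the largest part of each HuD sum, with 4728 to 6121 on the HuD arrays and 2305 and 1907 on the IgG arrays. Camk2a went the other way without passing, with 544 to 1701 on the HuD arrays and 2477 and 2031 on the IgG arrays. For 6 oligodendrocyte markers the sums were 13261 to 17685, 22323 to 27886 and 16936 (5 of 6 lower), for 7 microglial markers 1475 to 1988, 2920 to 4647 and 4466 (5 of 6 tested lower), and for 8 astrocyte markers 14313 to 16396, 17362 to 22282 and 18517 (5 lower, 1 higher). Sums of 7 interneuron markers were 5922 to 8324, 8518 to 10962 and 10166 (4 lower, 1 higher), of 4 choroid plexus markers 12226 to 15334, 16297 to 18645 and 9451 (none of 3 tested past the threshold), and of 4 endothelial markers 115 to 149, 285 to 346 and 222 (1 of 2 tested lower). No marker was at 0, and the sums of 2 red blood cell markers were at most 74.1. In pulldowns, the RNAs that the beads recovered, cell numbers and RNA per cell cannot be told apart from such sums. The part of cell type in the results was not tested.

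Structural subunits were lower in the HuD pulldowns than in the IgG pulldowns across all 3 complexes. Of 37 tested subunit genes, 32 fell, none rose and 5 did not pass the threshold. The median difference was -1.11 on the log2 scale against -0.28 for all tested genes, and 86.5% of the subunits fell against 34.0% of all tested genes. All 3 HuD arrays lay below both IgG arrays for 31 of the 37, or 83.8%, against 43.1% of all tested genes. By complex, 7 of 9 complex III subunits fell (median -1.51), as did 8 of 10 tested complex IV subunits (median -0.91) and all 17 ATP synthase subunits (median -1.30). Cycs did not pass. Among assembly factors, 2 of 7 tested fell, near the 34.0% share of all tested genes, with a median of -0.59. The difference between subunits and assembly factors was not tested.

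Those counts depended on single arrays and on the scaling. The count of subunits that fell was 16 without IgG array 2, 18 without HuD array 1 and 16 when arrays were centred on their 75th percentile, with complex IV reduced to 1 subunit each time. Under the 75th percentile centring the median of all tested genes moved from -0.28 to 0.03, and under median centring and quantile normalization to -0.13 and -0.11. Relative to that median, subunits lay at -0.83 as deposited and -1.04 under quantile normalization, but at -0.39 without IgG array 2. Both centrings move all genes of an array by the same amount, so they cannot change this value, which stayed at -0.83. The calls of 14 subunits held under every alternative run that tested them. In complex III these were Uqcrh, Uqcrc1, Uqcrc2, Uqcr11 and Cyc1, and in complex IV Cox4i1. In ATP synthase they were Atp5b, Atp5d, Atp5e, Atp5h, Atp5j2, Atp5k, Atp5o and Atp5pb. Atp5d and Atp5e, read only by probe sets marked as shared with other transcripts, were absent from the run without such probe sets. Each of the other 18 calls was lost under at least 1 alternative.

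**Figure D1:**
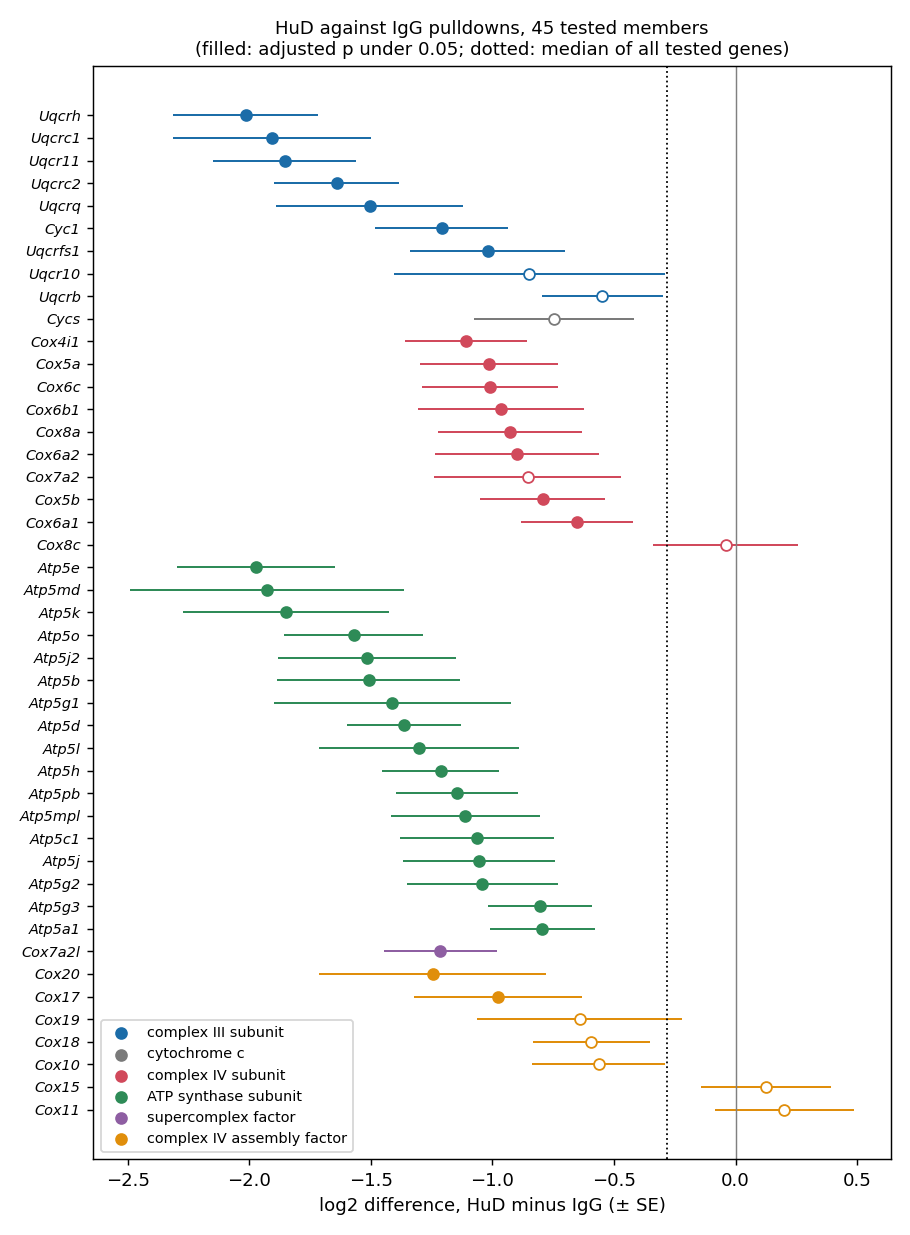
Log2 difference between HuD and IgG pulldowns for the 45 tested members, coloured by role, with bars of 1 SE. Filled points passed the adjusted threshold, open points did not, and the dotted line is the median of all tested genes, -0.28. All 17 ATP synthase subunits lie left of that line, and Cox11 and Cox15 lie right of 0.

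Promoters of these genes are shown as background, since their transcription is known to draw on ETS factors such as GABP and the nuclear respiratory factor NRF1. The arrays read RNA and not transcription, so a match is only a description of the letters. The 250 bases before the annotated start were read from the RefSeq promoter table (GRCm38.p6), which held 43 windows for 39 of the 52 genes. Matches to CCGGAAG on either strand, an ETS core, stood in 12 windows (27.9%) of 11 genes, against 6.91% of 32851 windows of all genes. Matches to the NRF1 palindrome, GCGCA followed by its reverse complement TGCGC, stood in 3 windows (6.98%), those of Atp5g2, Atp5k and Cox6a1, against 0.782% of all windows. The windows of all genes were not matched to the members by expression. No match of one motif overlapped a match of the other in the members. Stretches of 100 bases follow for 4 ETS matches and 1 NRF1 match among subunits that fell, 5′ to 3′ along the gene, with capitals marking the match.
Uqcrh promoter, chr4:116075071-116075170, minus strand: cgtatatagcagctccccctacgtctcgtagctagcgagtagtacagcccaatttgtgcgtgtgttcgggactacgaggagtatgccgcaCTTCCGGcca
Uqcr11 promoter, chr10:80406834-80406933, minus strand: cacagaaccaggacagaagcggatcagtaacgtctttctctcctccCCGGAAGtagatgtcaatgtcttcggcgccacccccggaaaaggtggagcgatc
Atp5e promoter, chr2:174464150-174464249, minus strand: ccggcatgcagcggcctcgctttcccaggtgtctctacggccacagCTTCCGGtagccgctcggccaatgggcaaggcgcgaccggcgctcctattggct
Atp5h promoter, chr11:115419920-115420019, minus strand: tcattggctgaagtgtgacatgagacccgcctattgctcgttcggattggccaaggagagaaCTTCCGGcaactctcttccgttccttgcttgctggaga
Atp5k promoter, chr5:108434400-108434499, minus strand: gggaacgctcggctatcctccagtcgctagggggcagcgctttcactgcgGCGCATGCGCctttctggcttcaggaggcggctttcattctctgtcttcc
The match in Uqcrh lay closest to the start among the 5, 10 bases before it, and that in Atp5e lay farthest, 102 bases before it. Assembly factors were among the genes with an ETS match too, namely Cox10, Cox16 and Cox20.

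Within complex III, the hinge protein gene Uqcrh, whose product helps electrons pass from cytochrome c1 to cytochrome c, showed the largest fall. Its signal was 371, 446 and 285 on the HuD arrays, 1213 and 2004 on the IgG arrays and 1260.2 on the input array. The HuD arrays lay well below all others, and the difference from IgG was -2.02 ± 0.30 (SE, adjusted p = 5.2e-04), 4.04-fold lower. Uqcrc1, a core protein facing the matrix, read 225, 526 and 216 on the HuD arrays, 1768 and 811 on the IgG arrays and 1349 on the input array. The groups did not overlap, although HuD array 2 stood above the other two, and the difference was -1.91 ± 0.41 (SE, adjusted p = 0.003). Uqcr11, the smallest subunit, read 927, 821 and 928 on the HuD arrays, 2374 and 4592 on the IgG arrays and 1649.7 on the input array, with the HuD arrays within a narrow range below the rest, and fell by 1.85 ± 0.29 (SE, adjusted p = 7.4e-04).

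The second core protein gene Uqcrc2 fell with a difference of -1.64 ± 0.26 (SE, adjusted p = 7.0e-04), and Uqcrq, a small membrane-bound subunit, with -1.51 ± 0.38 (SE, adjusted p = 0.0072). Against IgG, the redox subunits changed less than the genes above but more than Uqcrb and Uqcr10. Cyc1, which encodes cytochrome c1, read 1134, 1891 and 1155 on the HuD arrays, 3400.4 and 2961 on the IgG arrays and 4529 on the input array, with the groups apart, and its difference was -1.21 ± 0.27 (SE, adjusted p = 0.0041). Uqcrfs1, the Rieske iron-sulfur protein, differed by -1.02 ± 0.32 (SE, adjusted p = 0.019), with HuD arrays of 621 to 881 below IgG arrays of 1120 and 2284. Uqcrb, whose product lies near the ubiquinone site, read 8999, 8951 and 10643 on the HuD arrays, 10499 and 18415 on the IgG arrays and 9256 on the input array. HuD array 3 lay above IgG array 1, so the groups overlapped, and the difference of -0.55 ± 0.25 (SE, adjusted p = 0.08) did not pass. Uqcr10 read 269, 147 and 645 on the HuD arrays, 291 and 1072 on the IgG arrays and 531 on the input array, again with overlap through HuD array 3, and its difference was -0.85 ± 0.56 (SE, adjusted p = 0.21).

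Cytochrome c, encoded by Cycs, read 3941, 4284 and 5430.3 on the HuD arrays, 4888 and 11776 on the IgG arrays and 6913 on the input array. IgG array 2 stood far above the rest and IgG array 1 lay below HuD array 3, so the groups overlapped and the difference of -0.75 ± 0.33 (SE, adjusted p = 0.071) did not pass.

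In complex IV the falls were smaller and closely spaced. Cox4i1, the broadly expressed form of the subunit that binds adenine nucleotides, read 4170.2, 4240.1 and 5129.5 on the HuD arrays, 7578 and 12509.5 on the IgG arrays and 6933 on the input array. No HuD array reached an IgG array, and the difference was -1.11 ± 0.25 (SE, adjusted p = 0.004), 2.16-fold lower. Cox5a, a subunit on the matrix side, read 3861, 4961 and 4299 on the HuD arrays, 6281 and 12368 on the IgG arrays and 5733 on the input array, and its groups did not overlap either (-1.01 ± 0.28 SE, adjusted p = 0.011). Cox6c, a single-span membrane subunit, read 3432, 4908 and 5691 on the HuD arrays, 7284 and 11739 on the IgG arrays and 3688 on the input array. Its HuD values lay between the input and IgG array 1 apart from HuD array 1, which was the lowest of all, and the difference from IgG was -1.01 ± 0.28 (SE, adjusted p = 0.011). Cox6b1, Cox8a and Cox5b, the last a zinc-binding subunit, fell as well, by 0.96, 0.93 and 0.79 on the log2 scale. For Cox6b1 the groups overlapped, with 8022 on HuD array 3 and 7864 on IgG array 1.

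Several complex IV subunits exist as isoform genes with different tissue use. For the subunit 6a pair, the broadly expressed Cox6a1 read 7452, 9144 and 10699 on the HuD arrays, 12133 and 16508 on the IgG arrays and 7631 on the input array and fell with -0.65 ± 0.23 (SE, adjusted p = 0.032). The heart and muscle form Cox6a2 read 104, 67.9 and 123 on the HuD arrays, 133 and 315 on the IgG arrays and 197 on the input array and fell with -0.90 ± 0.34 (SE, adjusted p = 0.04). The groups did not overlap for either. Cox7a2, the broadly expressed form of subunit 7a, read 6027, 4051 and 8096 on the HuD arrays, 6456 and 17258 on the IgG arrays and 6747 on the input array. HuD array 3 exceeded IgG array 1, and the difference of -0.85 ± 0.38 (SE, adjusted p = 0.078) did not pass. Cox8c, a testis form, read 80.3, 35.9 and 99.9 on the HuD arrays, 64.2 and 78.3 on the IgG arrays and 88.2 on the input array, with no separation of the groups (-0.04 ± 0.30 SE, adjusted p = 0.91).

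The other isoform genes were not tested because their mean lay at or below the median of all genes, a signal of about 61.9. The muscle form Cox7a1 had signals of 15.5 to 25.8 on the HuD arrays, 57.7 and 94.7 on the IgG arrays and 47.7 in the input. Cox4i2, Cox6b2, Cox7b2 and Cox8b were at 1.26 to 47.2 on all arrays. Cox7c, which most tissues express, was listed at 1.35 to 29.6, and no statement on its level is made. The other untested member, the assembly factor Cox16, was at 30.0 to 51.9 on the HuD arrays and 49.4 and 130.2 on the IgG arrays.

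Cox7a2l, a relative of subunit 7a that joins complexes III and IV into supercomplexes, read 2227, 2371 and 2506 on the HuD arrays, 4777 and 6398 on the IgG arrays and 3697 on the input array. Its HuD arrays lay within a narrow range below every other array, and its difference of -1.21 ± 0.23 (SE, adjusted p = 0.0017) held its call under every alternative run.

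Every ATP synthase subunit fell, and for all 17 the HuD arrays lay below both IgG arrays. The ε subunit gene Atp5e, part of the central stalk, read 397, 325 and 403 on the HuD arrays, 1054 and 2296 on the IgG arrays and 815 on the input array. The HuD values were tightly grouped, and the difference was -1.97 ± 0.33 (SE, adjusted p = 8.7e-04), 3.92-fold lower. Atp5md, a small membrane subunit, read 1223, 876 and 1698 on the HuD arrays, 1946 and 11493 on the IgG arrays and 2418 on the input array. IgG array 2 lay far above IgG array 1, while HuD array 3 came near IgG array 1, and the difference was -1.93 ± 0.56 (SE, adjusted p = 0.014); without IgG array 2 it was -0.66 and did not pass. Atp5k, the e subunit at the dimer interface, read 2772, 1088 and 3123 on the HuD arrays, 5479 and 10829 on the IgG arrays and 3682 on the input array. HuD array 2 was the lowest and both IgG arrays the highest, with a difference of -1.85 ± 0.42 (SE, adjusted p = 0.0042).

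The catalytic head and central stalk (Atp5a1, Atp5b, Atp5c1, Atp5d and Atp5e) had a median difference of -1.37. The catalytic β subunit Atp5b read 745, 1529 and 589 on the HuD arrays, 3285 and 1992 on the IgG arrays and 3920.0 on the input array, without overlap, and differed by -1.51 ± 0.38 (SE, adjusted p = 0.0063). The α subunit Atp5a1 showed the smallest fall of all 17 on the probe sets used, with Atp5g3 close to it. Its signal was 3418, 4085 and 4185 on the HuD arrays, 6391 and 7148 on the IgG arrays and 5474 on the input array, and the difference was -0.80 ± 0.22 (SE, adjusted p = 0.0099). The other tested probe sets of Atp5a1 stood at -1.12, which did not pass, and -0.72, which was lower. The peripheral stalk (Atp5h, Atp5j, Atp5o and Atp5pb), which holds the head still, had a median of -1.18, with Atp5o, the stalk's cap on the head, at -1.57 ± 0.28 (SE, adjusted p = 0.0014). The 8 genes of the membrane part had a median of -1.36. This grouping by position was made after the values were seen. Falls of the remaining genes ran from -1.52 for Atp5j2 to -1.05 for Atp5j, the c-subunit genes aside.

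The ring of c subunits is encoded by 3 genes whose mature proteins are the same. Atp5g1 read 252, 212 and 294 on the HuD arrays, 323 and 1558 on the IgG arrays and 878 on the input array, with HuD array 3 just under IgG array 1 (-1.41 ± 0.49 SE, adjusted p = 0.029). Its difference was -0.33 without IgG array 2, where it did not pass, and -2.49 without IgG array 1. Atp5g2 read 127.9, 255 and 131 on the HuD arrays, 322 and 426 on the IgG arrays and 352 on the input array (-1.04 ± 0.31 SE, adjusted p = 0.016), and Atp5g3 read 5228, 4910.2 and 4814 on the HuD arrays, 7659 and 9924 on the IgG arrays and 5822 on the input array (-0.80 ± 0.21 SE, adjusted p = 0.009). HuD arrays lay below IgG arrays for each, and the size of the fall was not compared between the 3 genes by a test.

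The complex IV assembly factors were mixed. Cox20, which helps the mitochondrially encoded subunit 2 mature, read 293, 276 and 393 on the HuD arrays, 379 and 1636 on the IgG arrays and 819.7 on the input array. HuD array 3 exceeded IgG array 1, so the groups overlapped, while IgG array 2 was the highest of all, and the difference was -1.25 ± 0.47 (SE, adjusted p = 0.04). Cox17, a copper chaperone, read 1968, 2538 and 2878 on the HuD arrays, 3053 and 7593 on the IgG arrays and 2752 on the input array and fell with -0.98 ± 0.35 (SE, adjusted p = 0.032), again with IgG array 2 far above IgG array 1. Without IgG array 2 the differences were -0.23 for Cox20 and -0.32 for Cox17 and neither passed, while Cox10 then did, at -0.86. The count of assembly factors that fell was 1 without IgG array 2 and 0 without HuD array 1 or HuD array 2. Cox18, which moves the tail of subunit 2 across the inner membrane, and Cox10, which makes haem O, had differences of -0.59 ± 0.24 (SE, adjusted p = 0.053) and -0.56 ± 0.27 (SE, adjusted p = 0.1) and did not pass. Cox19, a copper-handling protein, read 316, 240.2 and 307 on the HuD arrays, 238 and 879 on the IgG arrays and 706 on the input array, with IgG array 1 the lowest of all arrays and IgG array 2 the highest (-0.64 ± 0.42 SE, adjusted p = 0.21). Cox15, which makes haem A, read 332, 271 and 374 on the HuD arrays, 253 and 340.3 on the IgG arrays and 387 on the input array and Cox11, which delivers copper to subunit 1, read 437, 600.3 and 501 on the HuD arrays, 340.2 and 562 on the IgG arrays and 523 on the input array. Both sets of groups overlapped, and the differences were 0.13 ± 0.27 (SE, adjusted p = 0.71) and 0.20 ± 0.29 (SE, adjusted p = 0.57).

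Assembly and expression factors whose symbols fall outside the rule included genes that rose. Of 29 tested, 17 fell, 4 rose and 8 did not pass, with a median of -0.86. In all tested genes 34.0% fell and 21.5% rose. Among factors for complex III, 3 of 5 fell and 1 rose. Uqcc2, needed for cytochrome b synthesis, and Bcs1l, which inserts the Rieske protein, fell (-1.72 ± 0.49 SE, adjusted p = 0.012 and -1.48 ± 0.28 SE, adjusted p = 0.0017), whereas Ttc19, which clears Rieske fragments, rose. Ttc19 read 1248, 939 and 1224 on the HuD arrays, 235 and 374 on the IgG arrays and 585 on the input array, with every HuD array above both IgG arrays (1.82 ± 0.28 SE, adjusted p = 6.4e-04).

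For complex IV, 11 of 19 fell and 2 rose. The 11, and the 17 of 29 above, include Ndufa4 (-1.39 ± 0.30 SE, adjusted p = 0.0033). Its product is a subunit of complex IV and not an assembly or expression factor. Slirp and Lrpprc, partners that stabilise mitochondrial mRNAs, fell by 1.87 and 1.34 on the log2 scale, and Surf1, a gene of Leigh syndrome, by 1.66. Sco1, a copper metallochaperone, read 195, 237 and 276 on the HuD arrays, 54.3 and 61.7 on the IgG arrays and 71 on the input array and rose (1.56 ± 0.25 SE, adjusted p = 7.7e-04). Coa5 read 5175, 4644 and 5343 on the HuD arrays, 1428 and 1912 on the IgG arrays and 1679 on the input array and rose too (1.59 ± 0.23 SE, adjusted p = 5.2e-04). Both also rose against the input, where 15.7% of tested genes did. Among factors for ATP synthase, Atpif1, the inhibitor of its reverse reaction, fell (-1.29 ± 0.38 SE, adjusted p = 0.014), and Atpaf1, a chaperone of the β subunit, rose (0.81 ± 0.27 SE, adjusted p = 0.026), in a list of 5 with 3 lower and 1 higher.

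Of 9 tested regulators of respiratory gene transcription, 3 fell and 2 rose against IgG, close to the 34.0% and 21.5% of all tested genes that did. Ppargc1a, the coactivator of mitochondrial biogenesis, read 2081, 2285 and 1992 on the HuD arrays, 1013 and 862 on the IgG arrays and 688 on the input array, with HuD arrays above all others (1.15 ± 0.24 SE, adjusted p = 0.0026). Gabpb1, a partner subunit of the ETS factor GABP, rose as well (0.73 ± 0.25 SE, adjusted p = 0.029). The 3 that fell were Pprc1, Tfam, which packages mitochondrial DNA, and Esrra, with differences of -1.12, -1.08 and -0.76.

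Against the input, the subunits that fell with the arrays as deposited and 1 probe set per gene belonged to complex III and ATP synthase. This contrast uses the same HuD arrays as the contrast with IgG, and its 1 input array was assumed to vary like the pulldowns. Of 37 subunits, 11 (29.7%) were lower in HuD, close to the 25.9% of all tested genes, and none was higher. The median of the subunits was -0.83 against -0.32 for all tested genes. Complex III supplied 5 of 9 (median -1.56), ATP synthase 6 of 17 (median -0.97) and complex IV none of 10 (median -0.33). This split changed with the processing, since 4 complex IV subunits and Cycs were lower than the input under quantile normalization, 1 and Cycs with the title suffix as a block, and 2 complex IV subunits without either IgG array. Leaving out an IgG array alters no difference between HuD and input, only the shared estimate of the spread. Differences between complexes were not tested. All HuD arrays lay below the input for 7 of 9 complex III subunits, 4 of 10 complex IV subunits and all 17 ATP synthase subunits, against 52.7% of all tested genes.

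The complex III genes below the input were Uqcrc1 (-2.07 ± 0.52 SE, adjusted p = 0.01), Cyc1 (-1.72 ± 0.35 SE, adjusted p = 0.0047), Uqcrh (-1.71 ± 0.38 SE, adjusted p = 0.0063), Uqcrfs1 and Uqcrc2, thus both core proteins, the hinge protein and both redox subunits encoded in the nucleus. In ATP synthase, Atp5b (-2.12 ± 0.48 SE, adjusted p = 0.0068) and Atp5o (-1.95 ± 0.36 SE, adjusted p = 0.0035) led, followed by Atp5g1, Atp5c1, Atp5pb and Atp5d at -1.69 to -0.89. The 5 complex III calls and those of Atp5b and Atp5o held under every alternative run. No complex IV subunit passed: Cox6c and Cox6a1 differed from the input by 0.31 ± 0.35 (SE, adjusted p = 0.5) and 0.24 ± 0.29 (SE, adjusted p = 0.52), and the lowest, Cox6a2, by -0.83 ± 0.43 (SE, adjusted p = 0.13). These values rest on 1 probe set per gene. Other probe sets stood at -1.52 for Cox6a1, -1.49 for Cox5a and -0.52 for Cox6c against the input, without a call. Those of Cox6a2, Cox6b1 and Cox7a2 stood at -1.11, -0.86 and -0.73, each below the one used. For Cox5b, with the one used at -0.12, other tested probe sets stood at 0.08, -0.61 and -0.82. For Cox8a the other tested one stood at -0.41, above the one used. Among assembly factors only Cox18 was lower (-1.47 ± 0.30 SE, adjusted p = 0.005), with signals of 81.7, 90.4 and 84.2 on the HuD arrays, 133 and 157 on the IgG arrays and 292 on the input array. The count of subunits ranged from 7 under 75th percentile centring to 23 under quantile normalization, and was 7 without HuD array 1 and 21 without either IgG array.

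**Figure D2:**
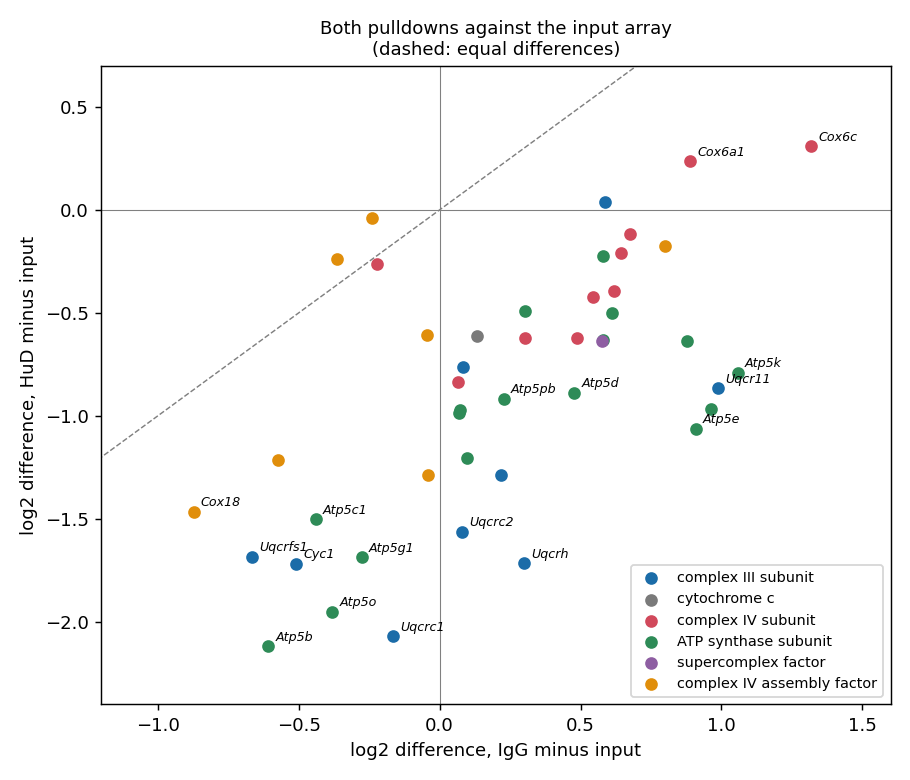
Log2 difference from the input array for IgG pulldowns (horizontal) and HuD pulldowns (vertical), 1 point per tested member, coloured by role, with the dashed line marking equal differences. Named members are those called against the input and those with leading values in the text; the axes share the input array, so the spread along the diagonal is partly built in. Complex III and several ATP synthase genes lie far below 0 on the vertical axis while the complex IV subunits lie between -0.83 and 0.31 and the assembly factor Cox18 lies at -1.47.

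The IgG beads served as the background of the pulldown. No member passed the threshold between IgG and input, where limma called 0.0220% of all tested genes higher and 0% lower. At an unadjusted p under 0.05 there were 4 of 45 members, Cox6c, Cox6a1 and Uqcr11 higher and Cox18 lower, and 7.05% of all tested genes. The median of the subunits was 0.30 and that of complex IV 0.58, against -0.07 for all tested genes. Cox6c had the largest value, 1.32 ± 0.38 (SE, adjusted p = 0.64).

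The 2 IgG arrays differed from each other. Relative to the input, the subunit median was -0.06 on IgG array 1 and 0.81 on IgG array 2, while the median of all tested genes was -0.07 and -0.06. On the HuD arrays it was -0.81, -0.98 and -0.56. IgG array 2 was the highest of all 6 arrays for 31 of 37 subunits, and it exceeded IgG array 1 for 34, among them all 10 of complex IV. All HuD arrays were below both IgG arrays and the input for 28 of 37, which included the 17 ATP synthase genes, 7 of complex III and 4 of complex IV.

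**Figure D3:**
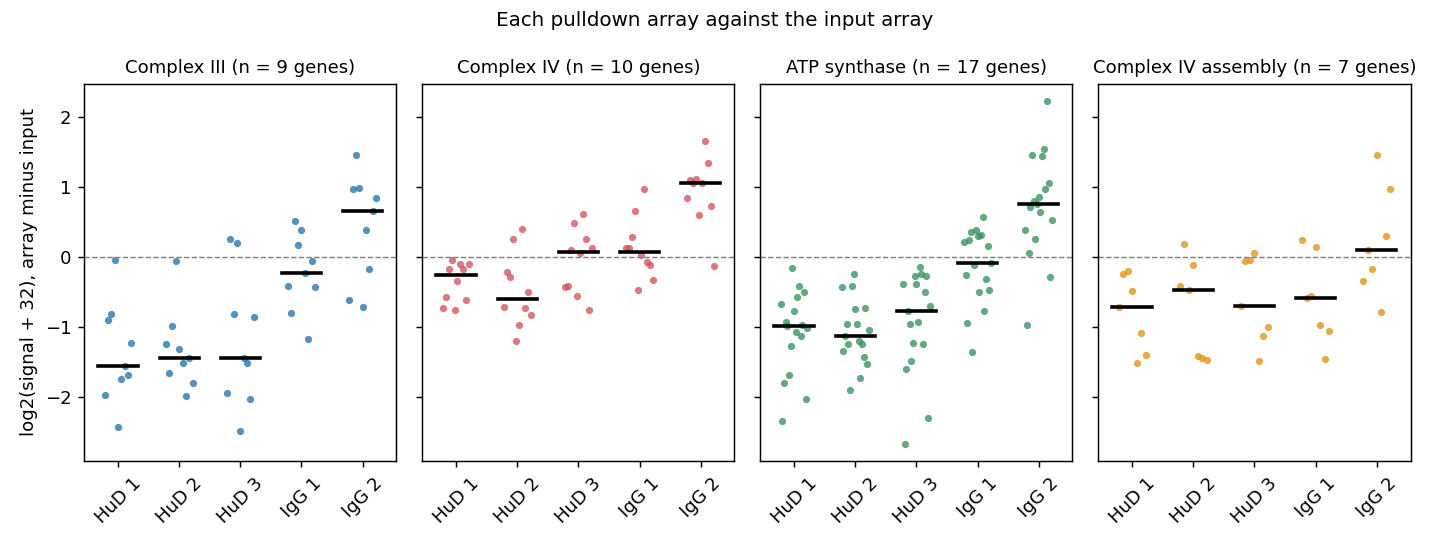
Difference of each pulldown array from the input array in log2(signal + 32), 1 point per tested gene and a bar at the median, for 9 complex III, 10 complex IV and 17 ATP synthase subunits and 7 complex IV assembly factors. The median of IgG array 2 lies above that of IgG array 1 in each panel, and the HuD medians of complex III lie between -1.56 and -1.44 while those of complex IV lie between -0.60 and 0.08.

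The sample titles end in 1 of 2 suffixes, whose meaning is not given, and both kinds hold HuD and IgG arrays. In the pair with the shorter suffix, HuD array 1 was below IgG array 1 for 36 of 37 subunits, with a median of -0.80 (-0.27 for all tested genes). Among the arrays with the longer suffix, the mean of HuD arrays 2 and 3 was below IgG array 2 for all 37, with a median of -1.48 (-0.24 for all tested genes). By complex, the medians for the shorter and the longer suffix were -1.33 and -1.67 for complex III, -0.47 and -1.38 for complex IV and -0.90 and -1.58 for ATP synthase.

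Many members are read by more than 1 probe set. Of 78 tested member probe sets, 61 were lower in HuD than IgG, 1 was higher and 16 did not pass, where 31.3% of all tested probe sets were lower and 21.4% higher. In 23 genes with several tested probe sets, 26 of the 33 additional ones were lower too, and 20 were more negative than the one used. Uqcrb and Uqcr10, which did not pass above, had other probe sets that did, at -1.17 and at -1.44 and -1.47. Cox6a1 moved from -0.65 to -1.87 and Atp5k from -1.85 to -2.85. The reverse held for Atp5g1, where another probe set stood at 0.37 and did not pass. Cycs was split: its probe sets read -0.75, -0.29, -1.23 (lower) and 0.82 (higher), the last with signals of 139, 137 and 153 on the HuD arrays, 89.4 and 48.4 on the IgG arrays and 120.3 in the input. The probe sets of Cox15 all lay at or above 0 without passing. Of the 52 probe sets used, 14 carry a suffix for sequences shared with other transcripts, and processed pseudogenes of several members, such as Atp5k and Uqcrh, are annotated, so that their signals may include other loci. With each gene read instead by its highest probe set without such a suffix, which replaced the one used where another existed, 27 of 33 subunits fell.

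**Figure D4:**
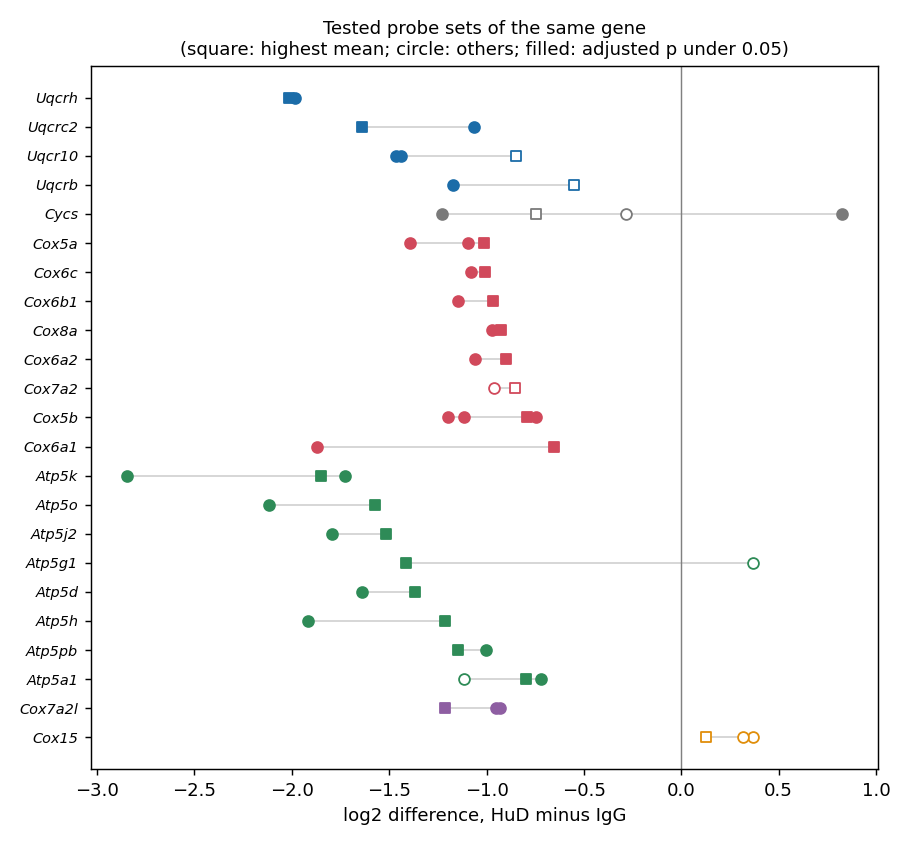
Log2 difference between HuD and IgG pulldowns for every tested probe set of the 23 genes with more than 1, coloured by role. Squares are the probe sets with the highest mean, circles the others, and filled symbols passed the threshold; Cycs and Atp5g1 have probe sets on both sides of 0.

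Complex I subunits and cytosolic ribosomal proteins are likewise encoded by broadly expressed nuclear genes, and they fell in the same contrast. Of 32 tested complex I subunits, 30 fell (median -1.44), and 34 of 44 cytosolic ribosomal protein genes did (median -1.37). The 4 complex II subunits were mixed, with 2 lower and 1 higher (median -0.69). Against the input, 16 of the 32, 20 of the 44 and 2 of the 4 were lower. The shares of all tested genes are the 34.0% and 25.9% given above for these contrasts. Differences between those lists and the members were not tested.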

How the data were processed

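RNA of 6 mouse hippocampus samples (3 HuD pulldowns, 2 IgG pulldowns, 1 input) was measured on Affymetrix arrays. The values are intensity signals as deposited by the authors, 1 per probe set. The summarising software is not given in the sources used here, and no detection calls were used. The trimmed means of the arrays were equal, which shows a scaling before deposit. Of 45101 probe sets, 34945 had 1 gene symbol in the platform annotation, 932 had several and were not named, and 64 were controls. Each gene was represented by its probe set with the highest mean, and the 9096 of 18193 genes above the median of mean log2(signal + 32) were tested. R 4.3.3 and limma 3.58.1 (lmFit, eBayes with trend) fitted 1 mean per group over all 6 arrays, with 3 residual and 8.41 prior degrees of freedom, and p-values were adjusted by Benjamini-Hochberg at a threshold of 0.05. The scripts were checked on simulated data. The members and lists were chosen with earlier results of these data known. Every member may be named, with full values for the 3 largest differences and the smallest per role, isoform genes, members with discordant probe sets and up to 4 called genes per outside list; statistics of other members were added after their values were seen. The number of arrays limits the precision. Replicate numbers of the groups only name arrays. Alternatives covered scaling, pseudocounts, the filter, probe set choice, blocks and leaving out arrays.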

Additional observations from a re-analysis of the deposited data

How the results depend on the processing

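The count of 32 subunits lower in HuD than IgG was 16 under 75th percentile centring, and ranged from 16 (without IgG array 2) to 36 (without IgG array 1) when single arrays were left out. It was 24 under median centring and without a filter, and 27 to 35 under the other alternatives, 35 with the replicate block (title number and suffix). The count of 2 assembly factors was 0 under 75th percentile centring, median centring and no filter, 1 under quantile normalization, with the mean of probe sets and without shared probe sets, an alternative chosen after seeing the data, and 0 to 3 without single arrays. The count of 11 subunits lower than the input was 7 under 75th percentile centring and without a filter, 23 under quantile normalization, 17 with the suffix as a block, and 7 to 21 without single arrays. Leaving out an IgG array does not alter the differences between HuD and input, whose subunit median stayed at -0.83. Only the shared estimate of the spread changed there. The cause of the other changes was not tested. Without a filter, p-values were adjusted over 18193 genes and the prior was estimated from the same genes, and no run separated these. Directions reversed only for genes not called: Cox8c to 0.28, 0.11 and 0.27 under 75th percentile centring, median centring and quantile normalization, 0.20 with the mean of probe sets and 0.24 with the replicate block. Without single arrays, Cox8c ranged from -0.24 to 0.24, Cox11 from -0.14 to 0.54, Cox15 from -0.068 to 0.32, Cox19 from -1.52 to 0.24 and Uqcr10 from -1.74 to 0.039, and the last 2 were called lower without IgG array 1. Of the single-gene values under alternatives, 788 kept direction and call, 120 lost the call, 19 gained one and 11 reversed.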

Other observations

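A probe set annotated to both Cox14, a complex IV assembly factor, and Gm29733 was left out of the counts. Its signal was 431, 935 and 451 on the HuD arrays, 567 and 922 on the IgG arrays and 560.2 on the input array, and the groups overlapped.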
